A study of Mus musculus with 11 samples.

Results

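The 37 genes of the mouse mitochondrial genome were examined in RNA sequencing of the quadriceps, a large thigh muscle, of aged mice. They were taken as all genes on the mitochondrial chromosome, whose symbols begin with mt-, and comprise 13 protein-coding, 2 ribosomal RNA and 22 transfer RNA genes among the 53465 genes of the count table. The mice were of the strain written C57L/6JRj in the labels. Treatment began at 18 months of age and ran for 10 weeks. Controls received DMSO, the solvent, and gave 5 libraries. The other mice received myriocin, a fungal inhibitor of serine palmitoyltransferase, the enzyme that opens sphingolipid synthesis, and gave 6 libraries. All groups were aged, so no comparison with young muscle was part of these libraries. Neither dose nor sex is given in the sources used here. Whether every library stands for its own mouse is not stated in the labels, and p-values measure only the spread between these libraries. The question is how muscle transcripts of aged mice differ with this treatment.

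The mitochondrial genome is a small circle that encodes subunits of respiratory complexes I, III and IV and of ATP synthase (complex V), together with the rRNAs and tRNAs of the mitochondrial ribosome's own translation system. Both strands are transcribed as long precursors by the polymerase Polrmt with Tfam and Tfb2m, and the tRNAs that lie between other genes are cut out to release the mRNAs and rRNAs. Skeletal muscle relies on these complexes for oxidative ATP production. Pieces of the mitochondrial genome have also been copied into nuclear chromosomes during evolution, and such copies can share reads with their source.

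Each library held 22241131 to 23163721 reads counted in genes, and counts are given below as CPM, the usual scaling of counts to that total, without further factors unless TMM is named. The floor was set at 3 reads, at most 0.135 CPM in a library. The fibre markers of the labelled muscle were present, with 11 of 11 genes detected and a summed level of 149188 to 179507 CPM. Reads with several alignments made up 15.2% to 18.1% of a library's reads in the count table and ambiguous reads 6.46% to 7.73%. Neither kind was counted in a gene. The line for unaligned reads held 0 in every library, so unaligned reads are not part of these shares. In these bulk samples, fewer cells of a type and less RNA per cell cannot be told apart.

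A contiguous stretch of the mitochondrial genome has an annotated copy on nuclear chromosome 1, and the sequences are shown first because the levels of 6 mRNAs stand beside it. In GRCm38, 7 annotated genes between chr1:24611535-24616188, on the minus strand, followed chrM:6390-11042 in order. Over 4140 aligned bases they differed from the mitochondrial genes at 2 positions. The copies are Gm29216 of the last 483 bases of mt-Co1, Gm28661 of mt-Co2, Gm10925 of mt-Atp6, Gm28437 of mt-Co3, Gm28438 of mt-Nd3, Gm10222 of mt-Nd4l and Gm28439 of the first 876 bases of mt-Nd4. The transcripts come from GENCODE release M21. Below are the surroundings of both differences, with the differing base in capitals, A1066T in mt-Co1 and T3C in mt-Nd3, counted from 1 at the start of the mitochondrial gene.
mt-Co1, chrM:6390-6413, plus strand: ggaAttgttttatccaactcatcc
Gm29216, chr1:24616165-24616188, minus strand: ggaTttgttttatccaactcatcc
mt-Nd3, chrM:9459-9481, plus strand: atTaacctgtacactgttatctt
Gm28438, chr1:24613097-24613119, minus strand: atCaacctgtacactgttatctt

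The opening 120 bases of mt-Co2, which encodes subunit 2 of cytochrome c oxidase, were identical in Gm28661. A second copy, Gm13341 on chromosome 2, differed in this stretch by C25T and G57A, shown in capitals.
mt-Co2, chrM:7013-7132, plus strand: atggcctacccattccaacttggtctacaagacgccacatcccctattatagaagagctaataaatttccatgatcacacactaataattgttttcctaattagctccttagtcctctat
Gm28661, chr1:24615446-24615565, minus strand: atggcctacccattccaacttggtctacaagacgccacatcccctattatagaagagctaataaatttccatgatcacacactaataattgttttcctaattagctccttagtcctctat
Gm13341, chr2:22587843-22587962, minus strand: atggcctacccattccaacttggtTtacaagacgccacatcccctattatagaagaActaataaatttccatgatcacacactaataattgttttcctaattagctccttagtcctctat
The copy of mt-Nd4 ends after base 876 of that gene. In the next sequence the bases in capitals lie beyond that end.
mt-Nd4, chrM:11003-11082, plus strand: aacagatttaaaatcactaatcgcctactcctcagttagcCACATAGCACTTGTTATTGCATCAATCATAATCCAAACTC

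The short gene mt-Atp8 has no annotated copy of its own. By its position it would project to chr1:24614609-24614812, between Gm28661 and Gm10925 and reaching into the latter, and the genome sequence there was not used here. Its last 43 bases, in capitals, are shared with mt-Atp6, which is read in another frame.
mt-Atp8, chrM:7766-7969, plus strand: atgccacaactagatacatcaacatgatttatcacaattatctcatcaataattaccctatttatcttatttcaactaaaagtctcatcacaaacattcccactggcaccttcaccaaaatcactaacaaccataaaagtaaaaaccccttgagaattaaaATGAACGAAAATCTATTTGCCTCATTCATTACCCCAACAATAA
Of the 36 neighbouring pairs on the mitochondrial genome, 9 overlapped, and reads that fall on both genes of such a pair can be set aside as ambiguous. No strand setting of the counting is stated, so reads of mt-Nd6, mt-Tp and other genes of the minus strand cannot be told apart from reads of the opposite strand at the same place.

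The 13 mRNAs fell into a group of 7 abundant genes and a group of 6 with few reads. Counts of mt-Nd1, mt-Nd2, mt-Co1, mt-Nd4, mt-Nd5, mt-Nd6 and mt-Cytb made up 96.0% of all mitochondrial counts. Those of mt-Co2, mt-Atp8, mt-Atp6, mt-Co3, mt-Nd3 and mt-Nd4l made up 0.0381%, or 8808 reads over all 11 libraries. Per kb of gene, the lowest value of an abundant mRNA in any library, 2840 CPM, was 118-fold the highest value of a low one. These 2 groups were formed after the levels had been seen.

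The split ran along the copied stretch. Of all windows of 100 bases, 99.5% in mt-Co2, 99.5% in mt-Atp6, 99.9% in mt-Co3, 97.6% in mt-Nd3 and 98.5% in mt-Nd4l occurred exactly in an annotated nuclear transcript. The share was 60.8% in mt-Nd4, 30.8% in mt-Co1, 3.19% in mt-Nd2 and 0 in mt-Nd1, mt-Nd5, mt-Nd6, mt-Cytb, mt-Atp8, mt-Rnr1 and mt-Rnr2. The chromosome 1 copies themselves held from 5 reads (Gm28438) to 481 reads (Gm29216) in a library and 12981 reads in total. How far the low counts reflect reads set aside for having several alignments was not tested, since the table does not say from which genes those reads came. Levels of these 6 mRNAs are therefore uncertain, and so is the split of their reads with the copies.

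**Figure D1:**
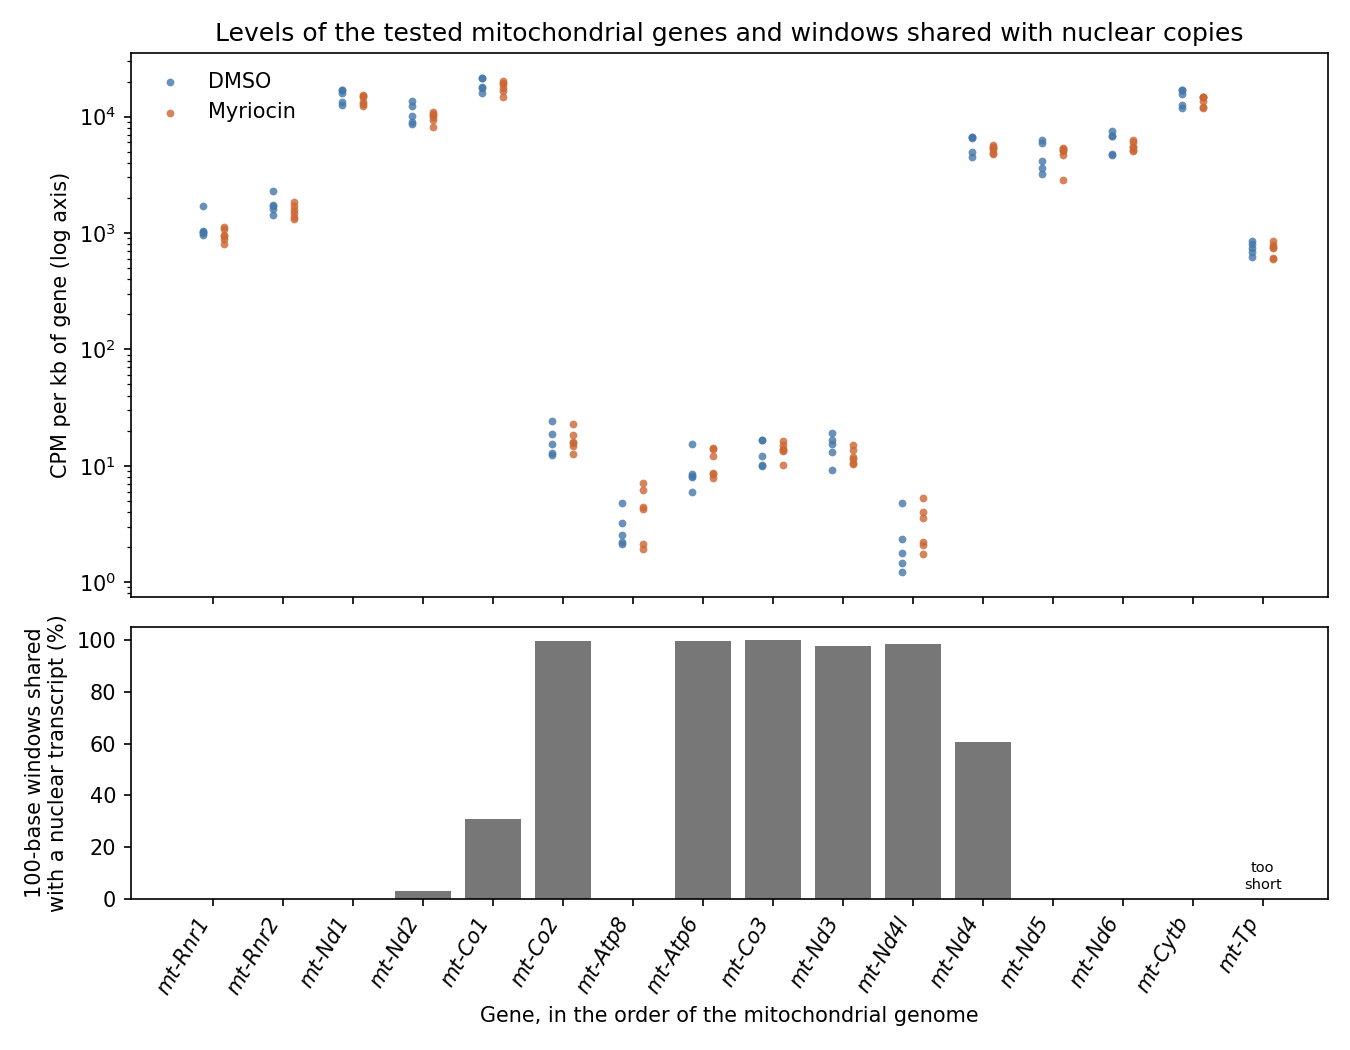
Upper plot, CPM per kb of gene (log axis) of the 16 tested mitochondrial genes in genome order, 1 point per library, DMSO and myriocin side by side. Lower plot, percent of the 100-base windows of each gene found exactly in an annotated nuclear transcript. The 5 genes with over 97% of their windows shared, and mt-Atp8 within the same stretch, lie far below the other mRNAs, by at least 118-fold.

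Ordered per kb, mt-Co1, the catalytic subunit 1 of cytochrome c oxidase, stood highest with 18401 ± 2205 CPM per kb (SD, n = 11). It was above mt-Nd1, a membrane subunit of complex I at 14500 ± 1705, in 11 of 11 libraries. Next came mt-Cytb, the cytochrome b of complex III, at 14130 ± 1894, and mt-Nd1 exceeded it in 10 of 11 libraries by a ratio of only 1.03 ± 0.03 (SD, n = 11). Then followed mt-Nd2 at 10289 ± 1635, mt-Nd6 at 5827 ± 952, mt-Nd4 at 5534 ± 777 and mt-Nd5 at 4695 ± 1113. The order of mt-Nd6 and mt-Nd4 held in 9 of 11 libraries, and that of mt-Nd4 and mt-Nd5 in 11 of 11. The place of mt-Nd6 is uncertain, as it may hold reads of the opposite strand. Counted over the 502 windows of mt-Nd4 that no nuclear transcript shares, its level would be 15192 ± 2133 CPM per kb. On the same measure mt-Co1 would be at 28430 ± 3406, mt-Nd1 at 16173 ± 1902 and mt-Cytb at 15469 ± 2074. Below mt-Nd4 would come mt-Nd2 at 11749 ± 1867, mt-Nd6 at 7200 ± 1176 and mt-Nd5 at 4964 ± 1177. The low mRNA mt-Atp8, which shares 0% of its windows with annotated nuclear transcripts, would be at 7.24 ± 3.45 CPM per kb. These figures assume reads of 100 bases, all counted within unshared windows, while no source used here states the read length. Where the counted reads lie in each gene was not tested.

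Among the low mRNAs the order per kb was mt-Co2 at 16.7 ± 3.96 CPM, mt-Co3 at 13.5 ± 2.61, mt-Nd3 at 13.3 ± 2.96, mt-Atp6 at 10.1 ± 3.19, mt-Atp8 at 3.72 ± 1.78 and mt-Nd4l at 2.76 ± 1.39 (SD, n = 11 each). The neighbours mt-Co3 and mt-Nd3 kept this order in 6 of 11 libraries, so they did not differ beyond their spread. The ratio per kb of mt-Co1 to mt-Co2, which encode subunits of the same enzyme, was 834 to 1558. Nuclear transcripts share 30.8% of the 100-base windows of mt-Co1 and 99.5% of those of mt-Co2. Both this ratio and the order of the low mRNAs are therefore of counted reads, and the RNA levels behind them are uncertain.

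Mitochondrial genes together took 11.2%, 8.06%, 10.9%, 8.14% and 9.52% of the gene counts in DMSO libraries 1 to 5. With myriocin the share was 7.42% at the lowest, 9.25% at the median and 9.70% at the highest. The groups overlapped, with DMSO 1 and 3 above every myriocin library and myriocin 4 below every DMSO library. DMSO averaged 9.55% ± 1.47 (SD, n = 5) and myriocin 8.92% ± 0.94 (SD, n = 6), a difference of -0.63 percentage points that was smaller than the spread within either group. It was -0.23 without DMSO 1 and -1.01 without DMSO 2. Of the mitochondrial counts, mRNAs of complex I took 45.9% to 49.6%, complex IV 29.1% to 33.4%, complex III 16.7% to 18.7% and complex V 0.00548% to 0.0121%. The rRNAs took 3.29% to 5.53% and the tRNAs 0.0450% to 0.0600%. All of these, with the total, are shares of counted reads, and levels of the low mRNAs are uncertain. Among the low mRNAs are both of complex V, mt-Co2 and mt-Co3 of complex IV, and mt-Nd3 and mt-Nd4l of complex I.

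**Figure D2:**
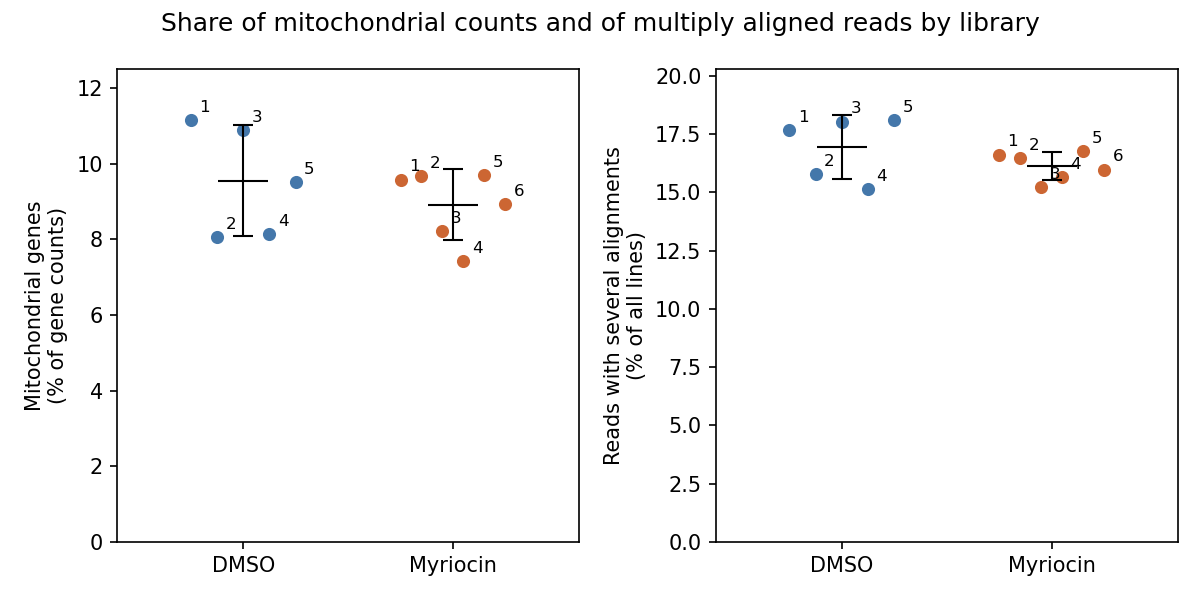
Left, percent of gene counts in the 37 mitochondrial genes, and right, percent of all table lines in the line for reads with several alignments, 1 numbered point per library with the group mean and SD as bars (n = 5 DMSO, n = 6 myriocin). The groups overlap in both plots, at 8.06% to 11.2% and 7.42% to 9.70% on the left.

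Myriocin was compared with DMSO in a fit over all 14117 tested genes, and 16 of the 37 mitochondrial genes entered it, namely the 13 mRNAs, both rRNAs and mt-Tp. By edgeR's quasi-likelihood test with Benjamini-Hochberg adjustment, 0 of the 16 passed an adjusted p of 0.05, beside 0% (percent of all tested genes). DESeq2 called 6 genes in all, with 0 mitochondrial. At an unadjusted p under 0.05 there were 0 of the 16, beside 4.68% of all genes, 2.33% higher and 2.34% lower. Log2 fold changes were above 0 for 7 and below 0 for 9, with a median of -0.06, while 46.3% of all tested genes were above 0 and their median was -0.01. The median of the 16 was 0.00119 without DMSO 1, with 8 above 0, and -0.13 without DMSO 2, with 4 above 0. The DMSO and myriocin libraries overlapped for all 16 genes, and they failed to overlap for 0.361% of all tested genes. The other 21 members had too few reads to be tested.

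**Figure D3:**
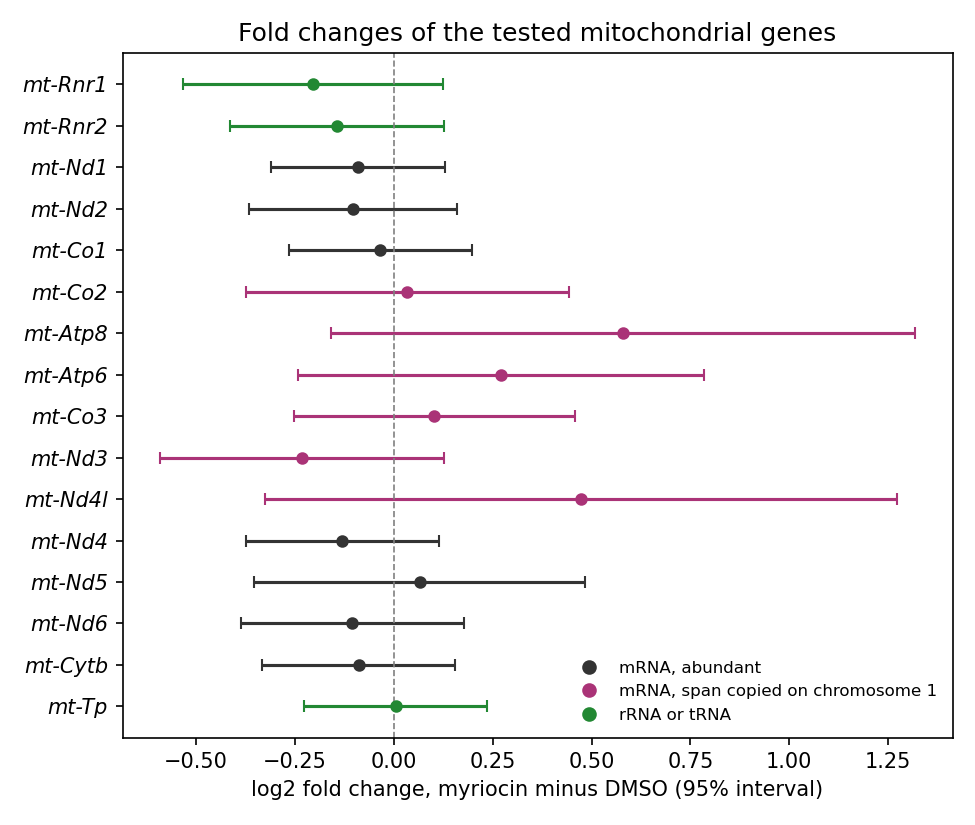
Log2 fold change of each tested mitochondrial gene, myriocin minus DMSO, as a point with its 95% interval, in genome order and coloured by abundant mRNA, mRNA of the stretch copied on chromosome 1, or rRNA and tRNA. Among the mRNAs of that stretch, mt-Atp8 is placed by its position only, without an annotated copy. Every interval includes 0, and the widest belong to mt-Atp8 and mt-Nd4l, which have the fewest reads.

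The rRNAs of the small (mt-Rnr1) and large (mt-Rnr2) mitochondrial ribosomal subunit lie at the start of the heavy-strand precursor. Levels of mt-Rnr1 (chrM:70-1024) were 969, 958, 998, 910 and 1619 CPM in DMSO 1 to 5, against 769, 912 and 1083 CPM as lowest, median and highest with myriocin. DMSO 5 alone stood apart. The log2 fold change was -0.21 (SE 0.15, 95% interval -0.53 to 0.12, adjusted p = 0.936, edgeR), and it was 0.000504 without DMSO 5. For mt-Rnr2 (chrM:1094-2675) the DMSO libraries held 2697, 2548, 2738, 2279 and 3643 CPM, and the myriocin libraries 2085, 2435 and 2936 CPM. DMSO 5 was again the highest. For mt-Rnr2 the log2 fold change was -0.14 (SE 0.13, interval -0.41 to 0.13), and it was -0.01 without DMSO 5.

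Complex I, the NADH dehydrogenase that passes electrons to ubiquinone, takes 7 mitochondrial subunits. The member with the smallest p was mt-Nd3 (chrM:9459-9806), with 104, 122, 131, 74 and 147 reads in DMSO 1 to 5 and 83, 93 and 120 reads as lowest, median and highest with myriocin. The highest values were DMSO 3 and 5 and the lowest DMSO 4, so the groups overlapped. Its log2 fold change was -0.23 (SE 0.17, interval -0.59 to 0.13, adjusted p = 0.936, edgeR), and its unadjusted p fell under 0.05 only without DMSO 4 (0.0275). For mt-Nd6 (chrM:13552-14070), the only mRNA read from the opposite strand, DMSO libraries held 3926, 2417, 3551, 2460 and 3548 CPM. With myriocin the lowest, median and highest were 2630, 2833 and 3242 CPM, inside the DMSO range. The log2 fold change was -0.10 (SE 0.13, interval -0.39 to 0.18).

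Of the other complex I subunits, mt-Nd1 gave a log2 fold change of -0.09 (SE 0.10), mt-Nd2 -0.10 (SE 0.12) and mt-Nd4 -0.13 (SE 0.11). For mt-Nd4 the DMSO mean on the TMM scale exceeded the value of 6 of 6 myriocin libraries, and without TMM their lowest value, 6529 CPM, was above the lowest DMSO library, 6235 CPM. With 8 to 36 reads in a library, mt-Nd4l gave 0.47 (SE 0.37, interval -0.32 to 1.27), and 0.91 without DMSO 3 (unadjusted p = 0.0219, adjusted 0.865, edgeR).

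Complex III takes mt-Cytb (chrM:14145-15288) as its mitochondrial subunit. It held 19481, 14435, 19243, 13596 and 17784 CPM in DMSO 1 to 5 and 13509, 16190 and 16820 CPM as lowest, median and highest with myriocin. DMSO 1 and 3 were the highest and myriocin 4 the lowest. The log2 fold change was -0.09 (SE 0.11, interval -0.33 to 0.16, adjusted p = 0.948, edgeR).

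Of complex IV, cytochrome c oxidase, mt-Co3 (chrM:8607-9390) had the smallest p. It had 218, 184, 298, 179 and 289 reads with DMSO and 182, 247.5 and 299 reads as lowest, median and highest with myriocin, ranges that nearly coincide. The log2 fold change was 0.10 (SE 0.17, interval -0.25 to 0.46). Those of mt-Co1, -0.03 (SE 0.11), and mt-Co2, 0.03 (SE 0.19), were smaller than their errors and changed sign when single libraries were left out.

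Both mitochondrial subunits of ATP synthase lie between the ends of the copied stretch, mt-Atp8 by its position only and without an annotated copy. The smallest p of all 16 genes was that of mt-Atp8, at 0.115 before and 0.936 after adjustment in edgeR. It had 15, 12, 22, 10 and 10 reads with DMSO and 9, 20.5 and 33 reads as lowest, median and highest with myriocin. Its highest and its lowest library were both myriocin libraries. The log2 fold change was 0.58 (SE 0.34, interval -0.16 to 1.32), and its unadjusted p fell under 0.05 when DMSO 3, myriocin 2 or myriocin 4 was left out (lowest 0.0437), with an adjusted p of at least 0.471 under every alternative run. For mt-Atp6, the proton channel subunit, the log2 fold change was 0.27 (SE 0.24), and 0.54 without DMSO 3 (unadjusted p = 0.0138, adjusted 0.865, edgeR).

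The abundant and the low mRNAs are set side by side here as a description. Of the 7 abundant ones, 6 were below 0 with a median of -0.09, and of the 6 low ones 5 were above 0 with a median of 0.19. Leaving out each library in turn moved the median of the low ones between 0.08 (without DMSO 4) and 0.37 (without DMSO 3). That of the abundant ones ran from -0.16 without DMSO 2, with 7 of 7 below 0, to -0.02 without DMSO 1, with 5 of 7 below 0.

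Of the 22 tRNA genes, 18 had 0 reads in all 11 libraries, which allows up to 0.135 CPM of counted reads in a library. Most tRNA genes adjoin or nearly adjoin another gene, and reads reaching into that gene can be set aside as ambiguous. The floor therefore sets no bound on the level of the tRNA itself, and the part of such reads was not tested. The tRNA genes are 59 to 75 bases long and no source used here states the size selection of the libraries. The proline tRNA mt-Tp (chrM:15356-15422, minus strand) held most of the tRNA reads. Its sequence is shown with the anticodon in capitals.
mt-Tp, chrM:15356-15422, minus strand: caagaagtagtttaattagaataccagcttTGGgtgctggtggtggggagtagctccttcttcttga
It had 1142, 1055, 1220, 963 and 1259 reads with DMSO and 918, 1162 and 1330 reads as lowest, median and highest with myriocin. The ranges overlapped almost fully, and the log2 fold change was 0.01 (SE 0.11, interval -0.23 to 0.24). The cysteine tRNA mt-Tc had 0, 1, 5, 0 and 3 reads in DMSO 1 to 5. With myriocin its lowest, median and highest were 0, 0.5 and 1 reads. For mt-Tq (glutamine) there was 1 read, in DMSO 3, and for mt-Tl1 (leucine) 1 read, in myriocin 5.

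Between libraries the abundant mRNAs had their highest and lowest values in much the same libraries. For 5 of the 7 abundant mRNAs DMSO 1 was the highest library and for the other 2 DMSO 3 was, while myriocin 4 was the lowest for 5 of 7. With DMSO 1 highest and myriocin 4 lowest, mt-Nd5, a proton-pumping subunit of complex I, shared this pattern but differed in the place of DMSO 5. It is described here after its values were seen. It held 11534, 6566, 10733, 7576 and 5891 CPM in DMSO 1 to 5 and 5181, 9383 and 9861 CPM as lowest, median and highest with myriocin. DMSO 5 was the lowest library after myriocin 4, although it was above average for mt-Nd4, mt-Nd6 and mt-Cytb. The log2 fold change was 0.07 (SE 0.19, interval -0.35 to 0.48), and -0.03 without DMSO 5.

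**Figure D4:**
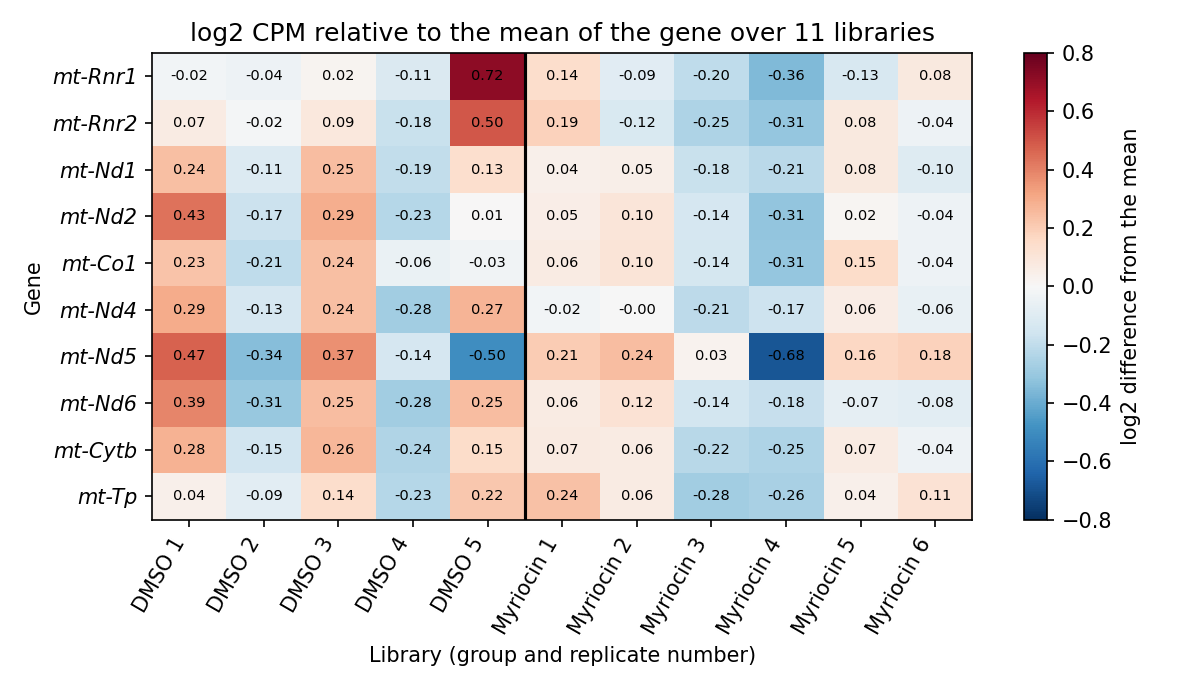
Log2 CPM of the 10 tested mitochondrial genes outside the low mRNAs in each library, as the difference from the mean of the gene over 11 libraries; red is higher, blue lower, and the line separates DMSO from myriocin. DMSO 5 is high for mt-Rnr1 (0.72) and low for mt-Nd5 (-0.50), and myriocin 4 is lowest for mt-Nd5 (-0.68).

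Set against mt-Cytb, which lies beyond mt-Nd6 along the genome, the count ratio of mt-Nd5 was 0.331 in DMSO 5, 0.384 in myriocin 4 and 0.455 in DMSO 2. The other 8 libraries lay between 0.555 and 0.617. The highest ratio was 1.86-fold the lowest, against 1.08-fold for mt-Nd1, 1.16-fold for mt-Nd4, 1.20-fold for mt-Nd6, 1.23-fold for mt-Nd2 and 1.28-fold for mt-Co1. The low libraries came from both groups. Summed hepatocyte markers reached 104 CPM in DMSO 5 and 126 CPM in myriocin 4, and also 124 CPM in DMSO 4, whose ratio was not low, against 8.16 to 30.9 CPM elsewhere (8 of 8 markers detected). In DMSO 2 the 6 neutrophil markers, all detected, summed to 849 CPM, against at most 116 CPM elsewhere. The 6 adipocyte markers summed to 1613 CPM there, against at most 610 CPM elsewhere. Ambiguous reads made up 7.10% in DMSO 2, 7.48% in DMSO 5 and 7.73% in myriocin 4, against 6.46% to 7.02% elsewhere. The part of these markers and of ambiguous reads in the ratio was not tested.

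**Figure D5:**
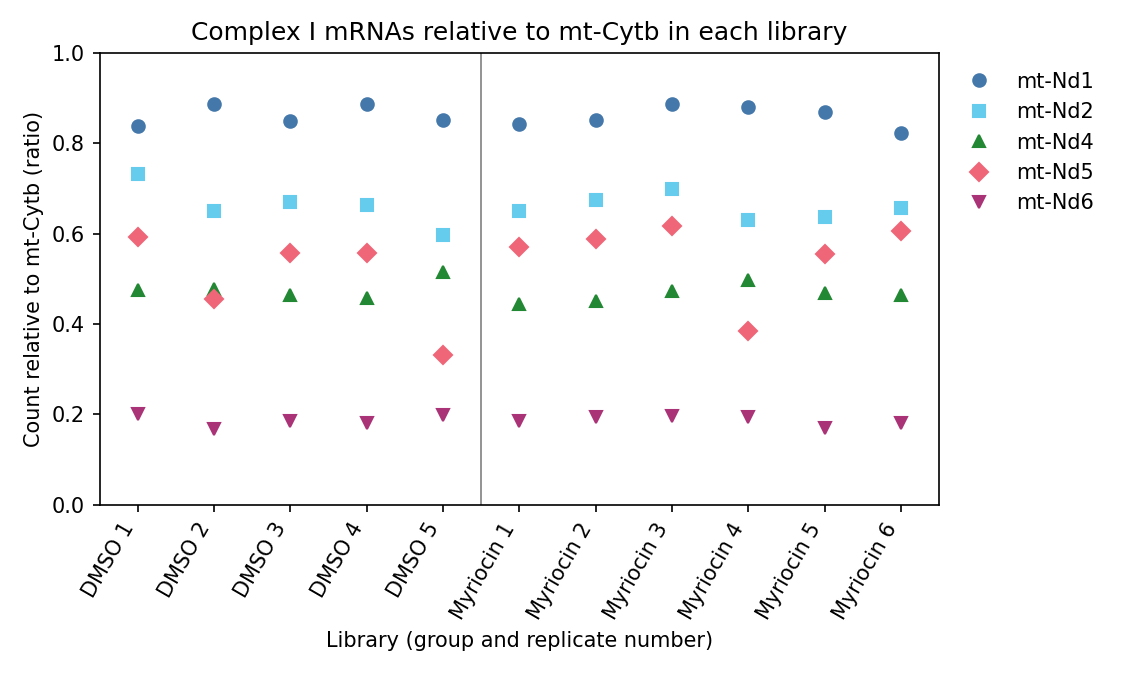
Counts of mt-Nd1, mt-Nd2, mt-Nd4, mt-Nd5 and mt-Nd6 relative to mt-Cytb (linear axis) in each library, DMSO left and myriocin right of the line. The mt-Nd5 points drop to 0.331, 0.384 and 0.455 in DMSO 5, myriocin 4 and DMSO 2, while mt-Nd1 stays between 0.823 and 0.887.

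Ratios of neighbouring genes do not depend on library scaling, and 3 were compared by a 2-sided exact permutation test over all 462 assignments. The log2 ratio of mt-Rnr1 to mt-Rnr2 averaged -1.37 ± 0.12 in DMSO libraries (SD, n = 5) and -1.41 ± 0.11 in myriocin libraries (SD, n = 6; exact p = 0.597, 0.981 adjusted over the 3). That of mt-Rnr2 to mt-Nd1, which lie on either side of the tRNA where transcription is known to be able to end, was -2.39 ± 0.22 and -2.44 ± 0.11 (exact p = 0.654, adjusted 0.981). That of mt-Nd6 to mt-Cytb, read from opposite strands, was -2.42 ± 0.11 and -2.42 ± 0.08 (exact p = 0.983). With no strand setting stated, mt-Nd6 may hold reads of the other strand, so this ratio may not compare the strands. None of the 3 differences exceeded the spread within groups.

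Nuclear genes that act on the mitochondrial genome were counted in the same fit, and none of them passed the adjusted threshold or an unadjusted p of 0.05. For mtDNA transcription, 4 of 11 tested genes were above 0 and 7 below, with a median of -0.04. Without DMSO 5, or without myriocin 3, 6 were above and 5 below. The smallest p there belonged to Mterf1a, a termination factor (log2 fold change -0.32, SE 0.26), and Tfb1m, an rRNA methyltransferase of the mitochondrial ribosome (-0.12, SE 0.11). For processing and stability of mitochondrial RNA, 15 of 29 were above 0 (13 to 18 leaving out each library), with Mrm1, a ribose methyltransferase of the large rRNA, at -0.22 (SE 0.12) and Ptcd2, a pentatricopeptide protein, at -0.11 (SE 0.06). For mtDNA replication, 6 of 11 were above 0 (4 to 7 leaving out each library), with Tk2, the mitochondrial thymidine kinase, at -0.16 (SE 0.08) and Polg2, the accessory subunit of the mtDNA polymerase, at -0.15 (SE 0.12). The adjusted p was 0.936 for each of these genes in edgeR.

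Of the nuclear-encoded subunits of complexes I, III, IV and V, 69 of 73 were below 0 beside 53.7% of all tested genes, with a median of -0.07. The count rested on DMSO 5, which had the highest summed level of these subunits, 25809 CPM. Without it 64 were above 0 and 9 below, with a median of 0.03. The median was -0.03 without myriocin 3 and -0.12 without DMSO 4 or myriocin 4. The smallest p belonged to Cox8a of complex IV, at -0.26 (SE 0.19), and Uqcrq of complex III, at -0.20 (SE 0.14), both with an adjusted p of 0.936 in edgeR. Cox8a held 65.7 CPM in DMSO 2, at most 34.9 CPM in the other DMSO libraries and 27.3 to 37.5 CPM with myriocin, so that DMSO 2 alone stood above the rest. Its log2 fold change was -0.02 without DMSO 2, and that of Uqcrq was -0.03 without DMSO 5.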

How the data were processed

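Total RNA of quadriceps was isolated with a Direct-zol kit and sequenced on the DNBseq platform, per the labels' protocols. Read counts per gene, not normalized, were deposited by the authors for the 11 libraries in 1 table. The submitters' processing notes name STAR 2.5.2b, HTSeq 0.6.0 and GRCm38. No source used here gives the annotation release, strand setting, read length or any selection for poly(A) or against rRNA. The 5 summary lines of the 53470 table lines stayed out of library sizes and tests. They include reads with several alignments (15.2% to 18.1% of a library's reads in the table). Of 53465 genes, 53360 matched GENCODE release M21, which gave symbols, coordinates and transcripts. Each column was assigned by its name, and 0 columns were left over.

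The test over all genes was that of edgeR 4.0.16 under R 4.3.3 (filterByExpr with a minimum count of 10 and total of 15, TMM, robust quasi-likelihood F test), with Benjamini-Hochberg adjustment over 14117 genes and a threshold of 0.05. The procedure was tested on simulated data with known changes. Log2 fold changes are myriocin minus DMSO on TMM-scaled counts. Nuclear copies were found by BLAST 2.17.0 of the mitochondrial genes against the transcripts, keeping alignments of at least 50 bases at 85% identity. Ratios were tested with exact permutations in scipy 1.17.1. Gene totals of 22241131 to 23163721 reads set the precision, and floors cover counting error only, since molecular identifiers are not given. No pair of libraries within a group was a duplicate (chi-square per degree of freedom 8.91 to 48.9).

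The members, the lists of nuclear genes and the markers were chosen with earlier results of these data known. Values in each DMSO library, with the lowest, median and highest of the myriocin libraries, are given for both rRNAs, the member with the smallest p in each complex, mt-Nd6 and the 3 tRNAs with the highest mean count, where mt-Tq and mt-Tl1 tied for the third place. Of each nuclear list the 2 genes with the smallest p are named. Alternatives were DESeq2 1.42.0, limma-voom (limma 3.58.1), 1 surrogate variable (sva 3.50.0), other scalings and filters, a replicate block and leaving out each library. Leaving out the 3 libraries with the lowest mt-Nd5 to mt-Cytb ratio, or the 3 with the most albumin reads, was added after seeing the data.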

Additional observations from a re-analysis of the deposited data

Results flagged for a closer look

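Of 42 groups of values examined for a library far from the rest, 4 held one, while chance gives about 1 in 20 independent groups. These groups share libraries and reads, and both flags on mt-Nd5 come from myriocin 4. The rates therefore cannot be set against each other. DMSO 5 stood apart for mt-Rnr1, at 1619 CPM against 910 to 998 CPM in the other DMSO libraries. DMSO 3 stood apart for mt-Atp6, at 10.5 CPM against 4.03 to 5.80 CPM. Myriocin 4 stood apart for mt-Nd5, at 5181 CPM against 8494 to 9861 CPM in the other myriocin libraries. The log2 ratio of mt-Nd5 to mt-Cytb in myriocin 4 was -1.38 against -0.85 to -0.70 in the other myriocin libraries. DMSO 5 and myriocin 4 were also among the 3 libraries with the most albumin reads, and the part of that in these values was not tested.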

How the results depend on the processing

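No mitochondrial gene was called under any of the 24 alternatives, and the difference in mitochondrial share stayed below 0 under all 18 run for it (-1.01 to -0.23 percentage points). Of all genes, DESeq2 called 6 and the fit with 1 surrogate variable 1, while the other alternatives called 0. Replicate numbers did not pair libraries, since deviations of same-numbered libraries correlated between -0.14 and 0.08 and 0 of 5 pairs matched best with their own number. With the replicate block 0 mitochondrial genes and 0 genes in all were called, and the difference in share was -0.64.
None of the 3 ratio differences kept its sign throughout. That of mt-Rnr1 to mt-Rnr2 was 0.0132 between group medians, 0.0177 without the 3 libraries with the lowest mt-Nd5 to mt-Cytb ratio, 0.0469 without the 3 with the most albumin reads, and -0.0672 to 0.00972 leaving out each library. That of mt-Rnr2 to mt-Nd1 was 0.0984 and 0.0738 without those sets of 3 libraries and -0.100 to 0.0352 leaving out each library. That of mt-Nd6 to mt-Cytb was -0.0307 without the low-ratio libraries and -0.0381 to 0.0287 leaving out each library.
Signs turned in 22 of 384 values of member genes, in 6 genes. They turned in 0 of 192 values of the named nuclear genes. Those genes were named for the smallest p in these data, so their stable signs cannot be set against the members. Leaving out each library, the log2 fold change ran from -0.105 to 0.0170 for mt-Co1, -0.0815 to 0.199 for mt-Co2, -0.0325 to 0.202 for mt-Nd5, -0.266 to 0.000504 for mt-Rnr1 and -0.0518 to 0.0708 for mt-Tp. Without the 3 low-ratio libraries it was -0.000489 for mt-Co2, -0.0669 for mt-Nd5, 0.0239 for mt-Rnr1 and 0.00507 for mt-Rnr2, and without the 3 albumin-rich libraries 0.0320 for mt-Rnr1. That of mt-Tp was -0.0284 with library totals unscaled, -0.0135 with 1 surrogate variable and -0.0181 with the replicate block.
The cause was not tested. Precision is limited for mt-Atp8 and mt-Nd4l, which had at most 36 reads in a library.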
